A study of Mus musculus with 19 samples.

Results

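Ighm, the constant region gene of the immunoglobulin mu heavy chain, and 8 other genes of the B cell lineage were followed through RNA-seq libraries of sorted monocytes. The others were Igkc, Cd79a, Cd79b, Ms4a1, Pax5, Ebf1, Vpreb3 and Cd22. They were chosen by their measured levels in these libraries, where Ighm was abundant while most of the remaining B cell genes lay near the floor of detection, so these levels are given as a description, with no test. The 9 genes are 9 of the 50854 in the count table. All 9 had a mean of at least 1 read per library and so were among the 18652 genes tested.

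The cells came from the bone marrow of REP mice, a compound reporter line in which Clover marks CCR1 and mRuby2 marks CCR2. Every animal was a female aged 8 to 12 weeks. Monocytes carrying both receptors (CCR1/2) or CCR2 alone were sorted from resting mice, with 4 libraries of each, and from inflamed mice, with 3 libraries of CCR1/2 and 4 of CCR2. A further 4 libraries were labelled inflamed CCR1, a population that the study's account of its sort does not name. Inflammation came from osmotic pumps under the skin that released IL-3, IL-6, GM-CSF and IFN-α for 7 days. The labels do not say whether resting mice carried vehicle pumps, and nothing states that replicates were separate animals, so the tests measure the spread between these libraries. Messenger RNA libraries were made with a kit for low input and read from both ends. Between 22268658 and 30502009 reads were counted on genes per library, with a median of 23706580. Levels are given as CPM, reads scaled to the size of the library, after TMM scaling.

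The mu heavy chain pairs with a light chain, kappa or lambda, to form IgM, which is held at the surface of B cells and signals through CD79A and CD79B. A complete heavy chain transcript joins a variable (V), a diversity (D) and a joining (J) segment to the constant region, and only cells that have rearranged the locus can make it, although promoters inside the unrearranged locus also give transcripts that start upstream of the constant exons. PAX5 and EBF1 set and keep B cell identity, and VPREB3 is made in precursor B cells. MS4A1 (CD20) marks mature B cells, and CD22 is an inhibitory coreceptor.

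The label monocyte was checked against 18 monocyte genes. Csf1r, the receptor of the growth factor of monocytes, stood at a mean of 407 CPM in resting CCR1/2, 837 in resting CCR2, 1079.9 in inflamed CCR1/2 and 1504 in inflamed CCR2. In the libraries labelled inflamed CCR1 its mean was 17.7 CPM. Ccr2 followed the same division, at 633, 1218, 1240.1 and 1251 CPM in these groups against 5.81 CPM in the libraries labelled inflamed CCR1. The monocyte groups were sorted for CCR2, so Ccr2, which is among the 18 genes, is no independent check. Ctss, a lysosomal protease of phagocytes, had a mean of 14.4 CPM in the libraries labelled inflamed CCR1 against 3315 in inflamed CCR2. In edgeR with Benjamini-Hochberg adjustment, 16 of the 18 monocyte genes were lower in the libraries labelled inflamed CCR1 than in inflamed CCR2 (median log2 fold change −5.93, against −0.01 over all genes), and 16 of 18 were lower than in inflamed CCR1/2 (median −5.55, against 0.00). Of all genes tested, 16.8% were lower in the first of these comparisons and 14.6% in the second. The data thus go against the label monocyte for these 4 libraries, which are called below only by their label. Comparisons among the other groups were fitted without them.

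Ighm (ENSMUSG00000076617) lies on the minus strand at chr12:113418558-113422730 of GRCm38, and its annotated exons cover 1886 bases. It drew 413018 reads over the 19 libraries. In resting CCR1/2 monocytes it stood at 648, 563, 685 and 688 CPM, and in resting CCR2 monocytes at 978, 725, 928 and 923 CPM. Every resting CCR2 library was above every resting CCR1/2 library. Inflamed CCR1/2 libraries held 936, 1638 and 1153 CPM, and inflamed CCR2 libraries 1222, 888, 1666 and 1443 CPM. Those labelled inflamed CCR1 were at 537, 421, 738 and 676 CPM, below every library of the other inflamed groups and on both sides of the range of resting CCR1/2.

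**Figure D1:**
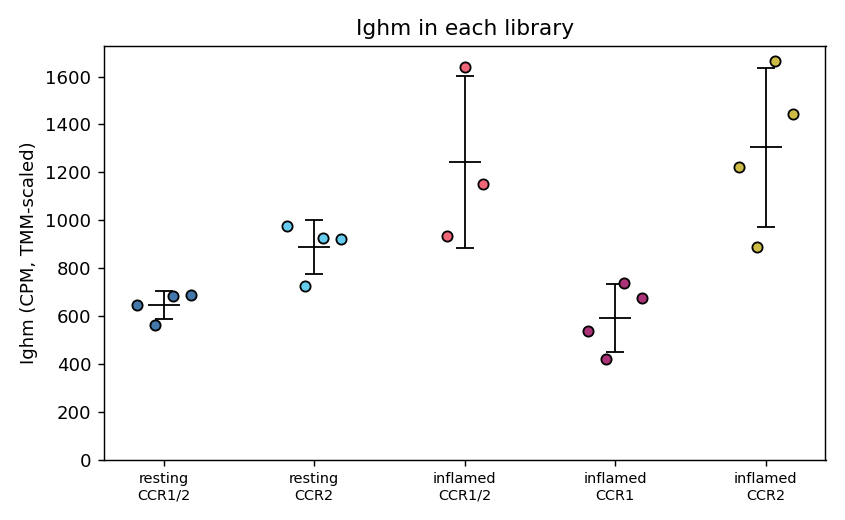
Ighm in CPM for each of the 19 libraries by group, with the mean as a horizontal line and the SD as bars. Inflamed CCR1/2 and inflamed CCR2 libraries overlap, between 888 and 1666 CPM, and the libraries labelled inflamed CCR1 lie below them, between 421 and 738 CPM.

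Ordered by mean, Ighm was highest in inflamed CCR2 (1305 ± 331 CPM, SD, n = 4), then inflamed CCR1/2 (1242 ± 359, n = 3), resting CCR2 (889 ± 112, n = 4), resting CCR1/2 (646 ± 57.8, n = 4) and the libraries labelled inflamed CCR1 (593 ± 142, n = 4). The last pair in this order was not compared by a test. Over the whole table the mean of Ighm ranked 94 in inflamed CCR2, 101 in inflamed CCR1/2, 124 in resting CCR2, 172 in resting CCR1/2 and 194 in the libraries labelled inflamed CCR1. Per kilobase of exon it reached 487 CPM over the 19 libraries, and 0.494% of 18618 genes with an annotated length were above it.

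In edgeR each of the 6 comparisons used only its own pair of groups, and a gene was called when its Benjamini-Hochberg adjusted p lay below 0.05 and its log2 fold change was 1 or more in size. Several comparisons share a group, so they are not independent of one another. Against inflamed CCR2, the libraries labelled inflamed CCR1 held less Ighm (log2 fold change −1.14 ± 0.207, SE, edgeR adjusted p = 0.000593, lower in 4 of 4 libraries). Against inflamed CCR1/2 the change was −1.08 ± 0.25 (edgeR adjusted p = 0.0109). Both passed the cutoffs, both groups were separate from the libraries labelled inflamed CCR1, and the exact two-sided permutation p was 0.0286 in each, the smallest that 4 against 4 or 3 against 4 libraries can give. The fold cutoff was narrowly met: the first change was −0.99 without inflamed CCR1 replicate 2 or without inflamed CCR2 replicate 3. The second was −0.81 without inflamed CCR1/2 replicate 3, −0.99 without inflamed CCR1 replicate 1 and −0.95 without inflamed CCR1 replicate 2, each still past the adjusted p cutoff, the highest adjusted p being 0.0458. The second also fell short of the fold cutoff with replicate numbers as a block, which do not pair the libraries of that comparison.

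With inflammation the mean of Ighm was higher in both monocyte populations, by less than the fold cutoff, so it was called in neither. The log2 fold change in CCR1/2 monocytes was 0.82 ± 0.164 (edgeR adjusted p = 0.00213, exact two-sided permutation p = 0.0286), and all 3 inflamed libraries were above all 4 resting ones. In CCR2 monocytes it was 0.49 ± 0.167 (edgeR adjusted p = 0.0246), the lowest inflamed library overlapped the resting range, and the exact two-sided permutation p was 0.114. Without inflamed CCR2 replicate 3 the latter was 0.35 (edgeR adjusted p = 0.0953) and without replicate 4 it was 0.43 (edgeR adjusted p = 0.078), so the adjusted p depends on those libraries. A test of the difference between the 2 effects gave an interaction of 0.29 ± 0.262 (edgeR adjusted p = 0.699).

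Between the resting populations Ighm was lower in CCR1/2 than in CCR2 (log2 fold change −0.38 ± 0.0962, edgeR adjusted p = 0.0156, exact two-sided permutation p = 0.0286). With replicate numbers as a block, which pair the libraries of this comparison, the adjusted p was 3.77e-05, and in the fit of all 19 libraries together it was 0.12. Inflamed CCR1/2 and inflamed CCR2 gave −0.08 ± 0.256 (edgeR adjusted p = 0.972). Fewer cells of a type and less RNA per cell cannot be told apart in bulk libraries, and this holds for every level given here.

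**Figure D2:**
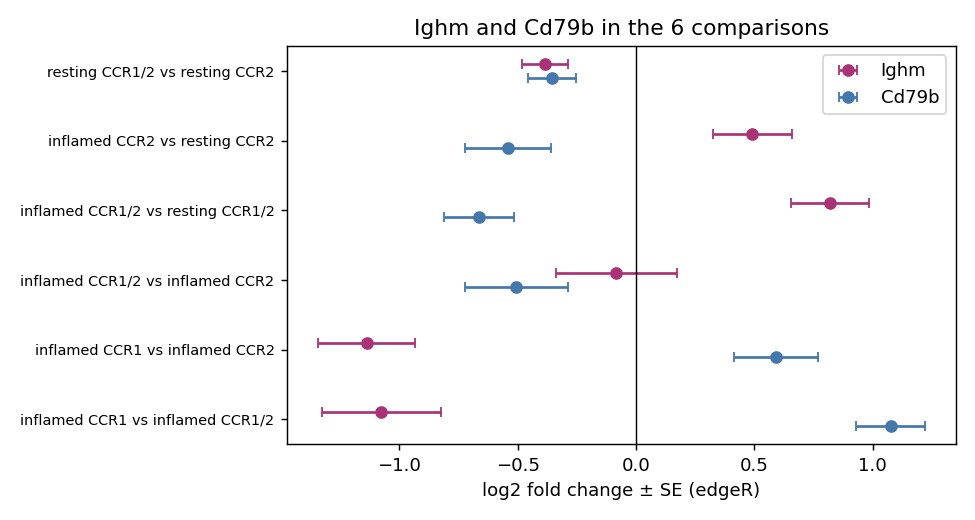
Log2 fold change with its SE from edgeR for Ighm and Cd79b in the 6 comparisons. The 2 genes lie on opposite sides of 0 in 4 of the 6 comparisons, both lie below 0 in resting CCR1/2 against resting CCR2, and both also lie below 0 in inflamed CCR1/2 against inflamed CCR2.

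A heavy chain transcript from a rearranged locus carries a V segment in front of the constant region, so reads on the 196 annotated heavy chain V segments were set beside those on Ighm. In the 15 libraries of the monocyte groups there were between 1.07 and 20.2 V segment reads per 1000 Ighm reads, with a median of 2.61. The highest of these was resting CCR1/2 replicate 4, with 450 V segment reads. Kappa transcripts gave another ratio: the 178 kappa V segments drew between 533 and 1424 reads per 1000 Igkc reads, with a median of 935. Ighm thus had few V segment reads for its constant region reads, while Igkc had about as many of the one as of the other. V segments form a multigene family, and since only reads with 1 place of alignment were counted, how many reads of a segment were lost to its relatives was not tested.

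**Figure D3:**
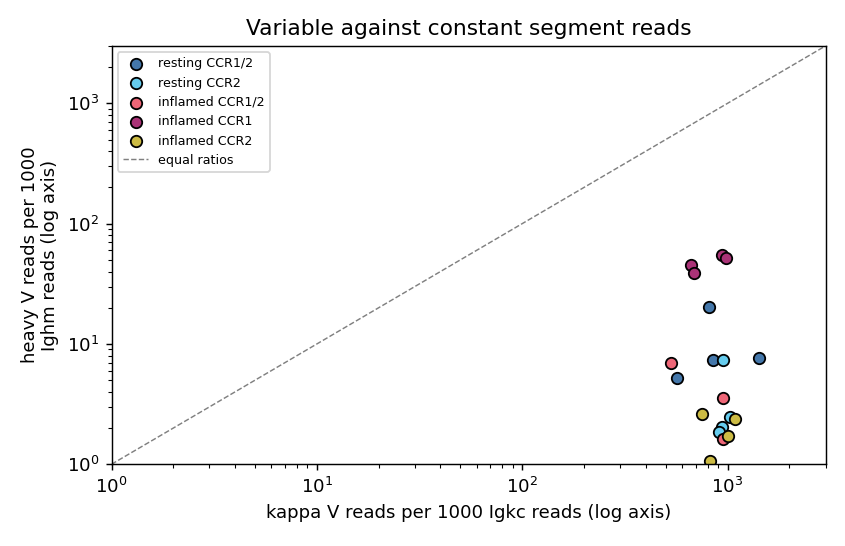
Heavy chain V segment reads per 1000 Ighm reads against kappa V segment reads per 1000 Igkc reads in the 19 libraries, both axes logarithmic, with a dashed line where the ratios are equal. Every library lies below the line, and the libraries labelled inflamed CCR1 lie highest on the heavy chain axis, between 39.0 and 55.1.

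The libraries labelled inflamed CCR1 had between 39.0 and 55.1 heavy chain V segment reads per 1000 Ighm reads, above every other library. Their V segments summed to a mean of 28.0 CPM, against 6.66 in resting CCR1/2, 2.84 in resting CCR2, 4.42 in inflamed CCR1/2 and 2.39 in inflamed CCR2. The mean of resting CCR1/2 was raised by replicate 4, at 13.9 CPM, while the lowest library of that group was at 3.39 CPM. Ighv1-41, annotated as a V pseudogene, was the most read segment in all 4, as in every inflamed CCR2 library and most libraries of the other groups. It held 978 of the 2428 V segment reads of the libraries labelled inflamed CCR1, and 93 of 134 in resting CCR1/2 replicate 3. The V segment ratios thus rest in part on this pseudogene. Its mean was 11.3 CPM in the libraries labelled inflamed CCR1 against 1.21 in inflamed CCR2 (log2 fold change 3.22 ± 0.248, edgeR adjusted p = 8.72e-09). It was also higher in resting CCR1/2 than in resting CCR2 (1.53 ± 0.288, edgeR adjusted p = 0.00307). Ighv1-74 rose too, from 0.0242 CPM in inflamed CCR2 to 4.35 in the libraries labelled inflamed CCR1 (log2 fold change 7.26 ± 0.566, edgeR adjusted p = 1.02e-08). Inflamed CCR2 held 2 reads of it, under the floor of 3 reads over a group taken here, so this fold is not exact. Against inflamed CCR1/2, which held 9 reads, the log2 fold change was 4.88 ± 0.416 (edgeR adjusted p = 3.885e-07). The V segments and Ighm therefore moved in opposite directions between these libraries and the inflamed monocytes.

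Reads on Ighj1, a heavy chain J segment, went the other way. J segments lie between the D segments and the constant region, and Ighj1, the first of 4, held 731 reads over the 19 libraries, against 64 for Ighj2, 45 for Ighj3 and 86 for Ighj4. Ighj1 had a mean of 2.82 CPM in inflamed CCR2, 2.04 in inflamed CCR1/2, 2.12 in resting CCR2, 1.02 in resting CCR1/2 and 0.175 in the libraries labelled inflamed CCR1. It was lower in the last group than in inflamed CCR2 (log2 fold change −3.99 ± 0.574, edgeR adjusted p = 2.07e-05) and than in inflamed CCR1/2 (−3.52 ± 0.624, edgeR adjusted p = 0.000461). The group with the most V segment reads was so the one with the fewest Ighj1 reads. Ighj2 had an edgeR adjusted p of 0.0352 between the libraries labelled inflamed CCR1 and inflamed CCR2. With replicate numbers as a block, which pair the libraries of this comparison, it did not pass (adjusted p = 0.0958), nor without inflamed CCR1 replicate 3 (0.0877), and 7 of 15 alternatives kept it. It did not differ from inflamed CCR1/2 (edgeR adjusted p = 0.167), and Ighj3 and Ighj4 passed in neither comparison. Per 1000 Ighm reads the J segments together drew between 1.62 and 3.61 reads in the 15 libraries of the monocyte groups, and between 0.107 and 0.905 in the libraries labelled inflamed CCR1. Of the D segments, 22 in all, 1 had any read in the monocyte groups and 0 had one in the libraries labelled inflamed CCR1.

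The J segments are shown because Ighj1 sets the libraries labelled inflamed CCR1 apart from the inflamed monocytes, with its 3 relatives for comparison, and the start of Ighm because it is the sequence they are spliced to. All are on the minus strand of chr12 in GRCm38, from GENCODE M21, 5′ to 3′. Capitals mark the bases TGGGG, the start of the conserved tryptophan and glycine codons by which J segments are known. Ighj1 is at chr12:113429781-113429833, Ighj2 (the one of its 2 annotated transcripts that holds the capitals) at chr12:113429468-113429515, Ighj3 at chr12:113429085-113429132 and Ighj4 at chr12:113428514-113428567, which places them 7050, 6737, 6354 and 5783 bases upstream of the start of Ighm. Reads and tests of Ighj2 cover the whole gene, chr12:113429468-113429567. The first 90 bases of Ighm are at chr12:113422641-113422730.
Ighj1: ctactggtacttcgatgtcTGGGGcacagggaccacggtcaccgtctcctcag
Ighj2: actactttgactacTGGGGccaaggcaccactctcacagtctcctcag
Ighj3: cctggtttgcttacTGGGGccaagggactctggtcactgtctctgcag
Ighj4: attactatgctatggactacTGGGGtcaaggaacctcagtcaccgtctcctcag
Ighm: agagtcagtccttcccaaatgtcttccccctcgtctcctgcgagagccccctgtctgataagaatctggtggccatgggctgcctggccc

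Constant regions other than mu were close to 0 in most libraries. Ighd, the delta constant gene that mature B cells express beside Ighm, had a mean of 0.403 CPM in resting CCR1/2, 0.869 in resting CCR2, 0.626 in inflamed CCR1/2, 0.458 in inflamed CCR2 and 0.161 in the libraries labelled inflamed CCR1. The 7 remaining heavy chain constant genes summed to 13.9 CPM in the libraries labelled inflamed CCR1, where Igha, of the alpha chain, drew 876 reads, 0 of them in replicate 1. In the monocyte groups Igha was uneven as well: 339 reads lay in resting CCR1/2 replicate 4 and 0 in the other 3 libraries of that group. Igkv8-27 drew 662 reads, every one of them in 1 library labelled inflamed CCR1, and 0 in the other 18. Igkv8-27 was thus confined to 1 library and Igha was absent from part of the libraries of every group, while every library held Ighm.

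Igkc (ENSMUSG00000076609, chr6:70726435-70726966, plus strand), the kappa light chain constant gene, varied far more between libraries than Ighm. Resting CCR1/2 libraries held 4.48, 1.43, 1.29 and 20.3 CPM and resting CCR2 libraries 1.24, 5.49, 3.20 and 0.913 CPM. In inflamed CCR1/2 the values were 13.8, 1.90 and 6.02 CPM and in inflamed CCR2 1.77, 0.512, 4.402 and 1.72 CPM. Igkc in the libraries labelled inflamed CCR1 ranged from 0.136 CPM (3 reads) through 6.09 and 10.7 to 47.0 CPM (999 reads). The highest library was 345 times the lowest for Igkc, against 3.96 times for Ighm, and the groups overlapped in every comparison. No comparison passed the adjusted p cutoff. The change between the libraries labelled inflamed CCR1 and inflamed CCR2 was 2.92 (edgeR adjusted p = 0.13), which passed under DESeq2 (adjusted p = 0.0411), under edgeR's filterByExpr (adjusted p = 0.0369) and without inflamed CCR1 replicate 1 (edgeR adjusted p = 0.0283). Per kilobase of exon over the 19 libraries, Ighm was 37.2 times Igkc and 24.0 times Cd79b, the nearest of the 9 genes. The distance was larger for Cd79a (782 times), Vpreb3 (1719.6), Cd22 (4189.9), Ms4a1 (6489), Ebf1 (30469) and Pax5 (41287). By group means Igkc was nearer than Cd79b in the libraries labelled inflamed CCR1 (30.1 against 26.5 CPM per kilobase). The same held in inflamed CCR1/2 (13.6 against 12.6).

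**Figure D4:**
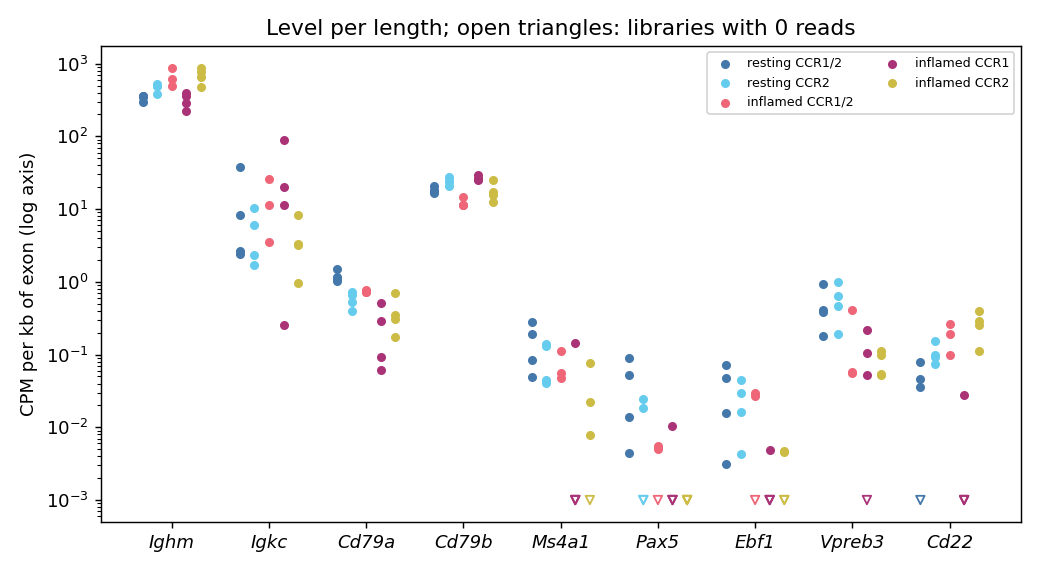
CPM per kilobase of exon of the 9 genes in each of the 19 libraries on a logarithmic axis, with open triangles for libraries with 0 reads. Ighm lies above every other gene in every library, and Pax5 has 0 reads in 10 of the 19.

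CD79A and CD79B form the signalling pair of the B cell receptor, but their genes differed in level and direction. Cd79b (ENSMUSG00000040592, chr11:106311341-106314762, minus strand) stood at 24.7, 26.6, 29.3 and 23.8 CPM in resting CCR1/2 and at 30.2, 33.7, 37.8 and 39.3 CPM in resting CCR2. It held 16.2, 16.5 and 21.2 CPM in inflamed CCR1/2 and 24.6, 18.1, 22.6 and 35.7 CPM in inflamed CCR2. Cd79b in the libraries labelled inflamed CCR1 was at 41.7, 36.7, 36.2 and 37.2 CPM, above every library of the other inflamed groups. Cd79b therefore had its highest mean (37.9 ± 2.55 CPM, SD, n = 4) in the group where Ighm had its lowest. For Cd79b that group overlapped resting CCR2, and the pair was not compared by a test.

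Against inflamed CCR1/2, Cd79b rose in the libraries labelled inflamed CCR1 (log2 fold change 1.08 ± 0.145, edgeR adjusted p = 3.53e-05, exact two-sided permutation p = 0.0286), and without inflamed CCR1/2 replicate 2 the change was 0.99. Against inflamed CCR2 it was higher by less than the fold cutoff (0.59 ± 0.177, edgeR adjusted p = 0.0109). With inflammation it was lower in CCR1/2 monocytes (−0.66 ± 0.147, edgeR adjusted p = 0.00296, exact two-sided permutation p = 0.0286, lower in 3 of 3 libraries). This is the opposite of Ighm. In CCR2 monocytes the change was −0.54 ± 0.183 (edgeR adjusted p = 0.0236), 1 inflamed library lay inside the resting range, and the exact two-sided permutation p was 0.0857. That adjusted p rose above the cutoff without resting CCR2 replicate 3 (0.08) or 4 (0.0909), and without inflamed CCR2 replicate 1 (0.0527), 2 (0.0677) or 3 (0.0607). Resting CCR1/2 monocytes held less than resting CCR2 monocytes (−0.35 ± 0.102, edgeR adjusted p = 0.0308), as for Ighm. There the adjusted p was 0.0733 without resting CCR1/2 replicate 1, 0.083 without replicate 4, 0.094 without resting CCR2 replicate 3 and 0.0885 without replicate 4. The interaction of population and inflammation was −0.17 (edgeR adjusted p = 0.836). The ratio of Ighm to Cd79b per kilobase had a median of 18.8 in resting CCR1/2, 18.2 in resting CCR2, 43.8 in inflamed CCR1/2, 37.4 in inflamed CCR2 and 11.8 in the libraries labelled inflamed CCR1.

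Cd79a (ENSMUSG00000003379, chr7:24897381-24902197, plus strand) was far scarcer than its partner. Resting CCR1/2 libraries held 2.17, 1.495, 1.68 and 1.63 CPM and resting CCR2 libraries 0.963, 1.04, 0.781 and 0.581 CPM. All 4 of the former were above all 4 of the latter, and Cd79a was the only one of the 9 genes called in this comparison (log2 fold change 1.12 ± 0.3, edgeR adjusted p = 0.0221, exact two-sided permutation p = 0.0286). Cd79a and Cd79b thus differed in opposite directions between the resting populations. The adjusted p of Cd79a was 0.0687 without resting CCR1/2 replicate 1, 0.0641 without resting CCR2 replicate 3, 0.07 without resting CCR2 replicate 4 and 0.118 in the fit of all 19 libraries. With replicate numbers as a block the call was kept. Of all genes tested, 2.34% were called higher in this comparison and 1.9% lower, against 1 and 0 of these 9.

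Among inflamed groups Cd79a stood at 1.07, 1.05 and 1.14 CPM in CCR1/2, at 0.443, 0.512, 1.02 and 0.258 CPM in CCR2, and at 0.136, 0.0903, 0.416 and 0.753 CPM in the libraries labelled inflamed CCR1. All 3 inflamed CCR1/2 libraries were above the others. The libraries labelled inflamed CCR1 were lower than inflamed CCR1/2 (log2 fold change −1.64 ± 0.574, edgeR adjusted p = 0.0336, exact two-sided permutation p = 0.0571). Here 30 reads stood against 69, and the adjusted p was above the cutoff without inflamed CCR1/2 replicate 3 (0.0777) or 4 (0.0799), or without inflamed CCR1 replicate 1 (0.0948), 2 (0.0744) or 3 (0.0503). With inflammation in CCR1/2 monocytes Cd79a gave −0.81 ± 0.316 and missed the cutoff (edgeR adjusted p = 0.0548), although the groups did not overlap (exact two-sided permutation p = 0.0286). This change was −1.01 (edgeR adjusted p = 0.0237) when libraries were scaled by size only.

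**Figure D5:**
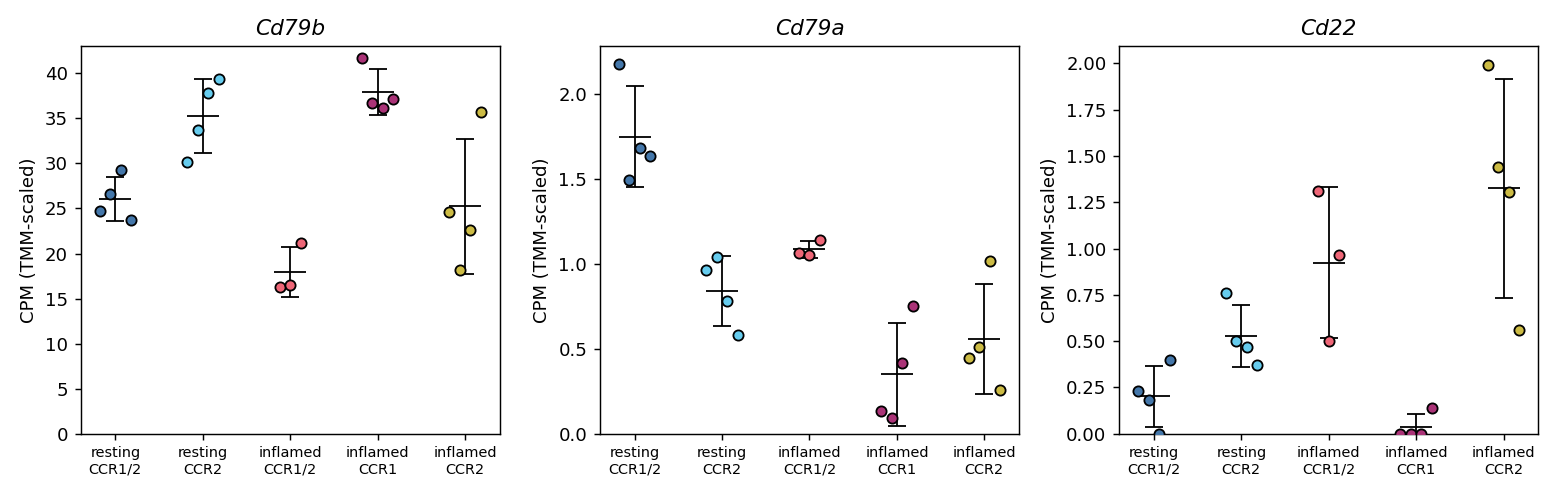
Cd79a, Cd79b and Cd22 in CPM for each of the 19 libraries by group, with the mean as a horizontal line and the SD as bars. The mean of Cd79b is highest and that of Cd22 lowest in the libraries labelled inflamed CCR1, where 3 of 4 libraries have 0 reads of Cd22. For Cd79b these libraries overlap those of resting CCR2.

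Cd22 (ENSMUSG00000030577, chr7:30865402-30880342, minus strand) was counted at 0.231, 0.183, 0 and 0.401 CPM in resting CCR1/2 and at 0.763, 0.502, 0.469 and 0.373 CPM in resting CCR2. Inflamed CCR1/2 libraries held 1.31, 0.4995 and 0.966 CPM and inflamed CCR2 libraries 1.99, 1.44, 1.31 and 0.559 CPM. In the libraries labelled inflamed CCR1 it had 0, 0, 0 and 0.141 CPM, 3 reads in all, which is the floor of 3 reads over a group taken here. Cd22 was thus highest in inflamed monocytes and close to 0 in the libraries labelled inflamed CCR1. In mice Cd22 shares 9.5% of its exon bases with Gm29439 on the other strand, and since the strand of counting is not stated, part of its reads may belong to that gene.

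Cd22 rose with inflammation in CCR2 monocytes (log2 fold change 1.24 ± 0.431, edgeR adjusted p = 0.0274, exact two-sided permutation p = 0.0571). The read ratio was 2.50 with a 95% interval from 1.80 to 3.52, exact and conditional on the total. It rose in CCR1/2 monocytes as well (2.00 ± 0.74, edgeR adjusted p = 0.045, exact two-sided permutation p = 0.0571), with a ratio of 4.33 (95% interval 2.69 to 7.16). Intervals and floors cover counting error only. These calls were close to the cutoff. The first was lost without resting CCR2 replicate 4 (adjusted p = 0.0523) and without inflamed CCR2 replicate 1 (0.102) or 2 (0.0565). The second was lost without resting CCR1/2 replicate 1 (0.0566) or 2 (0.0714), or without inflamed CCR1/2 replicate 2 (0.144), 3 (0.0512) or 4 (0.103).

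Below inflamed CCR2, Cd22 in the libraries labelled inflamed CCR1 gave a log2 fold change of −5.04 ± 0.779 (edgeR adjusted p = 3.77e-05, exact two-sided permutation p = 0.0286), 3 reads against 116, a ratio of 0.0261 (95% interval 0.00531 to 0.0783). Against inflamed CCR1/2 it was −4.52 ± 0.868 (edgeR adjusted p = 0.000735, exact two-sided permutation p = 0.0286), with a ratio of 0.037 (95% interval 0.00743 to 0.114). Both calls were kept whichever library was left out. Between the resting populations the change of −1.25 did not pass (edgeR adjusted p = 0.256).

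Ms4a1 (ENSMUSG00000024673, chr19:11249675-11266241, minus strand), which encodes CD20, drew 109 reads in resting CCR1/2, 58 in resting CCR2, 29 in inflamed CCR1/2, 15 in inflamed CCR2 and 19 in the libraries labelled inflamed CCR1. All 19 of the last lay in replicate 4. No comparison of Ms4a1 passed the adjusted p cutoff. With inflammation in CCR2 monocytes the change was −1.76 (edgeR adjusted p = 0.0887), and without inflamed CCR2 replicate 4, which held 11 of the 15 reads, it was −3.15 (edgeR adjusted p = 0.00944). Without replicate 4 of the libraries labelled inflamed CCR1, 0 reads remain in that group, so a fold against it is not a measured one. The edgeR adjusted p was then 0.00245 against inflamed CCR1/2 and 0.0415 against inflamed CCR2. Both rest on leaving out the only library of that group with a read.

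The transcription factor genes Pax5 and Ebf1 were scarce in all groups, and most so outside the resting ones. Pax5 (ENSMUSG00000014030, chr4:44524757-44710487, minus strand) had 45 reads in resting CCR1/2, 26 of them in replicate 4, 10 in resting CCR2, 2 in inflamed CCR1/2, 2 in the libraries labelled inflamed CCR1 and 0 in inflamed CCR2. In CCR1/2 monocytes it fell with inflammation (log2 fold change −3.44 ± 1.2, edgeR adjusted p = 0.0353, exact two-sided permutation p = 0.2), with a read ratio of 0.0849 (95% interval 0.00997 to 0.325). That call was lost in 5 of 7 single omissions, among them resting CCR1/2 replicate 4 (adjusted p = 0.108) and inflamed CCR1/2 replicate 3 (0.112), and with replicate numbers as a block (0.097). In CCR2 monocytes the difference did not pass (edgeR adjusted p = 0.0654, exact two-sided permutation p = 0.429). There 10 resting reads, all in 2 of 4 libraries, stood against 0, a bound of 2.86-fold against the floor. Antisense genes cover 7.18% and 1.41% of its exon bases, so part of these reads may not be its own.

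Ebf1 (ENSMUSG00000057098, chr11:44617317-45008091, plus strand) had 39 reads in resting CCR1/2, 24 in resting CCR2, 12 in inflamed CCR1/2, 2 in inflamed CCR2 and 1 in the libraries labelled inflamed CCR1. It fell with inflammation in CCR2 monocytes (log2 fold change −3.16 ± 1.05, edgeR adjusted p = 0.0216, exact two-sided permutation p = 0.0857), with a read ratio of 0.0971 (95% interval 0.0111 to 0.391). The adjusted p was 0.0881 without resting CCR2 replicate 1, 0.0501 without replicate 2, 0.0523 without inflamed CCR2 replicate 3 and 0.0526 without replicate 4. In CCR1/2 monocytes the change did not pass (−0.96, edgeR adjusted p = 0.492), and the interaction gave an edgeR adjusted p of 0.585. The difference from inflamed CCR1/2 to the libraries labelled inflamed CCR1 (12 reads against 1) missed the cutoff (edgeR adjusted p = 0.0512), and it passed without inflamed CCR1/2 replicate 3 (0.0197) or inflamed CCR1 replicate 4 (0.0476).

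Vpreb3 (ENSMUSG00000000903, chr10:75943057-75949657, plus strand) had 50 reads in each resting group, 10 in inflamed CCR1/2, 6 in inflamed CCR2 and 7 in the libraries labelled inflamed CCR1. Resting CCR2 libraries held between 0.166 and 0.843 CPM and inflamed CCR2 libraries between 0.0443 and 0.0967 CPM, with no overlap. It fell with inflammation in CCR2 monocytes (log2 fold change −2.82 ± 0.699, edgeR adjusted p = 0.00371, exact two-sided permutation p = 0.0286), with a read ratio of 0.14 (95% interval 0.049 to 0.326), and this call was kept whichever library was left out. In CCR1/2 monocytes the change of −1.53 did not pass (edgeR adjusted p = 0.174). Inflamed CCR1/2 replicate 4 held 8 of the 10 reads of its group, and without it the change was −3.10 (edgeR adjusted p = 0.0363).

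Of the 9 genes, 5 matched a RefSeq promoter of build GRCm38.p6 around the gene start, with 6 promoters in all; Ighm, Igkc, Cd79b and Ms4a1 had no match. The octamer ATTTGCAT, a motif of immunoglobulin promoters, was sought on both strands. It lay in 1 of the 6, that of Vpreb3, and in 1.74% of 32851 promoters, and it starts 45 bases before the RefSeq start, which lies inside the longer GENCODE span given above. A palindrome bound by EBF1 was sought as well and lay in 1 of the 6, that of Cd22, and in 0.904% of all promoters.  A match describes letters only. The promoter of Vpreb3 is shown because it alone of the 6 holds the octamer; it lies on the plus strand at chr10:75948050-75948349, with the octamer in capitals.
Vpreb3: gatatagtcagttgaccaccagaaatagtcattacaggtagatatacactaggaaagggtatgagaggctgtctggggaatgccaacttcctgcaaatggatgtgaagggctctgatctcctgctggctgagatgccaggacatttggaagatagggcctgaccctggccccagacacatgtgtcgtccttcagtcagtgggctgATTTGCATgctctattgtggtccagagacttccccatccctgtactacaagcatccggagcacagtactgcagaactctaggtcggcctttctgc

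Counted together, 1 of the 9 genes was called higher and 2 lower with inflammation in CCR2 monocytes, where 9.37% of genes tested were higher and 19.2% lower. In CCR1/2 monocytes 1 was higher and 1 lower with inflammation, against 9.16% and 19.4% of genes tested. Of the 9 genes the libraries labelled inflamed CCR1 had 0 higher and 2 lower against inflamed CCR2 (14.4% and 16.8% of genes tested), where DESeq2 called 1 higher and 1 was higher in edgeR at an unadjusted p below 0.05. They had 1 higher and 3 lower against inflamed CCR1/2 (13.2% and 14.6%). Between inflamed CCR1/2 and inflamed CCR2, edgeR called 0 of 9 (0.102% of genes tested were higher and 0.0429% lower), DESeq2 also called 0, and 2 had an unadjusted p below 0.05, Cd79b (0.038) and Ebf1 (0.0497). Over all genes of that comparison the balance of calls turned with the method: edgeR called 19 higher and 8 lower, DESeq2 44 and 62, and edgeR with a replicate block 37 and 46. Whether 9 genes with these counts differ from the background was not tested.

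The median log2 fold change of the 9 genes was −0.68 with inflammation in CCR2 monocytes and −0.81 in CCR1/2 monocytes, beside −0.10 and −0.25 over all genes. It was 0.58 between the resting populations (0.03 over all genes) and 1.09 between inflamed CCR1/2 and inflamed CCR2 (−0.03), or 1.02 with genes near 0 at their bound. The libraries labelled inflamed CCR1 gave 0.22 against inflamed CCR2 (−0.01) and −1.02 against inflamed CCR1/2 (0.00), the latter −1.05 with genes at their bound. Scaling by library size only moved the median of all genes in inflamed against resting CCR1/2 monocytes from −0.25 to −0.46, and the changes of that comparison are to be read against it. Ighm had the sign opposite to the members' median in both comparisons with inflammation.

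Whether Ighm varied with the other genes between libraries was examined within the 8 resting libraries and within the 7 inflamed CCR1/2 and CCR2 libraries, 16 relations in all. In the resting libraries Cd79a gave Pearson's r of −0.808 (exact permutation p = 0.0212) and Spearman's rho of −0.762 (p = 0.0368), and r was −0.812 without the 2 libraries farthest from the median of Ighm. The resting libraries hold 2 groups that differ in Ighm, and within them r was 0.342 in CCR1/2 and −0.464 in CCR2, each from 4 libraries. A relation within the groups and a difference between them cannot be told apart here. For Cd22 in the same libraries rho was 0.81 (exact permutation p = 0.0218) and r 0.567 (p = 0.131), with r of −0.149 within CCR1/2 and 0.228 within CCR2. Ebf1 in the inflamed libraries gave rho of −0.852 (exact permutation p = 0.0286) and r of −0.694 (p = 0.0964), with r of −0.945 within the 3 CCR1/2 and −0.862 within the 4 CCR2 libraries. No relation passed Benjamini-Hochberg adjustment over the 16, where the smallest adjusted p from exact permutation was 0.338 for r and 0.196 for rho.

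Among the genes most like Ighm over the 19 libraries, by Pearson's r of log2 CPM among 11175 genes, were Tmem131 (0.946), Irgm2 (0.942), Lbh (0.941) and Stx8 (0.939). Without the libraries labelled inflamed CCR1 they were Trafd1 (0.965), Tap2 (0.955), Rel (0.951), Gbp3 (0.95) and 5031439G07Rik (0.949), among 11042 genes. Irgm2, Trafd1, Tap2 and Gbp3 are interferon-inducible genes. Ighj1 ranked 347 over the 19 libraries (0.833), Igkc 6329 (−0.0739) and Cd79b 9013 (−0.451). Igkc and Cd79b, the members abundant enough to be ranked over the 19 libraries, were thus not close to Ighm in pattern. These values are descriptions of libraries that share groups.

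Of 22 genes of B cell receptor signalling, 21 were tested and Blk is not analysed here. Most of the kinases and phosphatases among them also work in myeloid cells. The most abundant was Ptpn6, the phosphatase SHP-1, at a mean of 635 CPM in resting CCR1/2, 777 in resting CCR2, 1285 in inflamed CCR1/2, 1206 in inflamed CCR2 and 716 in the libraries labelled inflamed CCR1. With inflammation, 4 were higher and 1 lower in CCR2 monocytes (median log2 fold change 0.38), and 3 higher and 1 lower in CCR1/2 monocytes (median 0.52). Of all genes tested, 9.37% were higher and 19.2% lower in the first and 9.16% and 19.4% in the second, and the shares and medians of all genes given with the 9 genes stand beside each list below as well. Pik3cd, a catalytic subunit of PI3-kinase, rose from 135 to 496 CPM in CCR2 monocytes (log2 fold change 1.80 ± 0.1, edgeR adjusted p = 1.41e-09). Fcgr2b, an inhibitory Fc receptor, rose from 197 to 662 CPM in CCR1/2 monocytes (1.62 ± 0.105, edgeR adjusted p = 1.97e-07). Pik3cd and Fcgr2b were higher in inflamed monocytes of both populations, where Ighm did not reach the fold cutoff, and whether the list as a whole differs from all genes was not tested.

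Between the resting populations 1 signalling gene was higher and 1 lower in CCR1/2 (median −0.22): Cd81, a coreceptor, at 21.1 against 7.01 CPM (log2 fold change 1.68 ± 0.168, edgeR adjusted p = 7.62e-05), and Pik3ap1 (−1.17), which without resting CCR2 replicate 1 no longer met the fold cutoff. Between inflamed CCR1/2 and inflamed CCR2, 0 were called by edgeR or by DESeq2, and 2 were higher and 3 lower at an unadjusted p below 0.05 (median −0.02). In the libraries labelled inflamed CCR1, 4 were higher and 7 lower than in inflamed CCR2 (median −0.74), and 3 higher and 7 lower than in inflamed CCR1/2 (median −0.84). Cd81 reached 582 CPM there, against 18.98 in inflamed CCR2 (4.95 ± 0.167, edgeR adjusted p = 3.65e-13). Across the alternatives 3 to 5 signalling genes were higher and 5 to 8 lower than in inflamed CCR2, and 3 higher and 5 to 9 lower than in inflamed CCR1/2. With inflammation 3 to 4 were higher and 1 to 2 lower in CCR2 monocytes, and 2 to 5 higher and 0 to 1 lower in CCR1/2 monocytes.

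Among 17 transcription factors of the B lineage, 16 were tested, and their summed mean level was 1565 CPM in resting CCR1/2, 1774 in resting CCR2, 378 in inflamed CCR1/2, 415 in inflamed CCR2 and 658 in the libraries labelled inflamed CCR1. At rest the most abundant was Spi1 (PU.1), a factor of monocytes as well as B cells, which fell with inflammation from 735 to 38.1 CPM in CCR2 monocytes (log2 fold change −4.34 ± 0.111, edgeR adjusted p = 2.95e-12) and from 564 to 33.9 CPM in CCR1/2 monocytes (−4.18 ± 0.13, edgeR adjusted p = 1.45e-09). With inflammation 10 of the 16 were lower and 0 higher in CCR2 monocytes (median −1.29, against −0.10 over all genes, of which 19.2% were lower and 9.37% higher), where DESeq2 called 9 lower and 0 higher and 1 was higher in edgeR at an unadjusted p below 0.05. In CCR1/2 monocytes 6 were lower and 1 higher (median −0.97, or −0.81 with genes at 0 at their bound, against −0.25 over all genes, of which 19.4% were lower and 9.16% higher). The mean of Ighm was higher with inflammation in both populations, by less than the fold cutoff, while Spi1 was lower in both.

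Of the same factors, 1 was higher and 3 lower in resting CCR1/2 than in resting CCR2 (median −0.21), with Irf4, a factor of plasma cells and of dendritic cells, at 2.39 against 16.4 CPM (log2 fold change −2.69 ± 0.174, edgeR adjusted p = 1.51e-05). Irf4 was also the only one called between inflamed CCR1/2 and inflamed CCR2 (−1.25, edgeR adjusted p = 0.0244; median of the list −0.19, or −0.16 at the bound). That call was lost without inflamed CCR1/2 replicate 2 (0.0528) or 4 (0.112), or without inflamed CCR2 replicate 2 (0.061) or 3 (0.0711). The libraries labelled inflamed CCR1 had 3 higher and 4 lower than each inflamed monocyte group (median 0.19 against CCR2 and −0.09 against CCR1/2). Ets1 stood at 259 CPM in them against 1.53 in inflamed CCR2 (7.41 ± 0.145, edgeR adjusted p = 1.03e-15). Across the alternatives 8 to 12 factors were lower with inflammation in CCR2 monocytes and 5 to 8 in CCR1/2 monocytes, and 0 to 1 were higher and 1 to 3 lower between the resting populations. In the libraries labelled inflamed CCR1, 3 were higher and 4 to 5 lower than in inflamed CCR2, and 3 to 5 higher and 4 lower than in inflamed CCR1/2.

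Genes of pro-B and pre-B cells were below 1 CPM in every group. Of 7, 6 were tested, Vpreb2 had 0 reads in all libraries, and the list summed to means of 0.853 CPM in resting CCR1/2, 1.01 in resting CCR2, 0.359 in inflamed CCR1/2, 0.405 in inflamed CCR2 and 0.996 in the libraries labelled inflamed CCR1. Il7r, the receptor of interleukin 7, was the most abundant in resting CCR2 (0.472 CPM). By edgeR and by DESeq2, 0 were called between the resting populations, between the inflamed monocyte groups and with inflammation in CCR1/2 monocytes, where 0, 0 and 1 had an unadjusted p below 0.05 in edgeR. In CCR2 monocytes Il7r and Dntt were called lower with inflammation, in 9 and 6 of 15 alternatives. Igll1, of the surrogate light chain, was higher in the libraries labelled inflamed CCR1 than in inflamed CCR2 (42 reads against 5, log2 fold change 2.98 ± 0.947, edgeR adjusted p = 0.0152), and the adjusted p was 0.0771 without inflamed CCR1 replicate 2. Against inflamed CCR1/2, 2 of the 6 were higher, Igll1 and Rag2, and the alternatives gave 0 to 2. Rag2 (edgeR adjusted p = 0.0321) was kept in 7 of 14 and lost, among others, without inflamed CCR1/2 replicate 2 (0.0942) or 3 (0.0968) and without inflamed CCR1 replicate 1 (0.062) or 2 (0.0779). Medians of so few reads moved with the bound: 0.04 between the resting populations (−0.26 at the bound), −1.13 between the inflamed monocyte groups (−0.73), and 0.23 (1.08) and 1.12 (2.23) for the libraries labelled inflamed CCR1 against CCR2 and CCR1/2. With inflammation they were −1.30 in CCR2 and −1.04 in CCR1/2 monocytes.

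In the list of mature B cell surface genes 11 of 12 were tested. Its sum had a mean of 120.4 CPM in resting CCR1/2, 119 in resting CCR2, 131 in inflamed CCR1/2, 113 in inflamed CCR2 and 214 in the libraries labelled inflamed CCR1, and Cd37, a tetraspanin that other leukocytes share, made up most of it (107, 108, 109, 102 and 192 CPM). With inflammation 2 were lower in CCR2 monocytes (median −0.49, or −0.55 at the bound), H2-Ob (log2 fold change −1.98 ± 0.417) and Fcmr, the latter with an edgeR adjusted p of 0.0564 without resting CCR2 replicate 1. By edgeR 0 were called between the resting populations (3 at an unadjusted p below 0.05; median 0.07), with inflammation in CCR1/2 monocytes (3; median 0.48) and between the inflamed monocyte groups (3; median 0.96, or 0.94 at the bound). DESeq2 called 0, 1 and 0 there. In the libraries labelled inflamed CCR1, 2 were higher and 3 lower than in inflamed CCR2 (median −0.11, or −0.42 at the bound), and 5 were lower than in inflamed CCR1/2 (median −1.09, or −1.50), among them Fcrla (−4.38 ± 0.859). The first counts held poorly: with replicate numbers as a block, which pair these libraries with inflamed CCR2, Ighd did not pass (adjusted p = 0.0777, against 0.0486), and 3 of 15 alternatives kept it. Cr2, a complement receptor, was kept in 8 of 15 and lost, among others, without inflamed CCR1 replicate 4 (edgeR adjusted p = 0.0822). Across the alternatives 1 to 2 were higher and 0 to 4 lower than in inflamed CCR2, and 2 to 5 lower than in inflamed CCR1/2. With inflammation 1 to 2 were lower in CCR2 monocytes, and 0 to 2 higher and 0 to 1 lower in CCR1/2 monocytes. The part of B cells in the level of Ighm was not tested.

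Of 8 plasma cell genes 7 were tested, and Xbp1, which monocytes also express, made up nearly all of their sum (means of 634 CPM in resting CCR1/2, 771 in resting CCR2, 289 in inflamed CCR1/2, 270.0 in inflamed CCR2 and 111 in the libraries labelled inflamed CCR1). Xbp1 fell with inflammation from 766 to 267 CPM in CCR2 monocytes and from 629 to 287 CPM in CCR1/2 monocytes. The mean of Ighm was higher with inflammation in both, by less than the fold cutoff. With inflammation 2 were lower in CCR2 monocytes and 1 in CCR1/2 monocytes (medians −0.74 and −0.87, the latter −1.06 at the bound). In resting CCR1/2, 2 were lower than in resting CCR2 (median −0.21), and Sdc1, the plasma cell marker CD138, had 0 reads there against 109. Jchain, which joins IgM into polymers, had means of 3.48, 1.37, 0.736, 0.895 and 7.21 CPM in the same order of groups as the sums. Between the inflamed monocyte groups edgeR and DESeq2 called 0, and 2 were lower in edgeR at an unadjusted p below 0.05 (median −0.36). Of plasma cell genes the libraries labelled inflamed CCR1 had 2 higher and 3 lower than inflamed CCR2 (median −0.55), and 1 higher and 2 lower than inflamed CCR1/2 (median 0.13, or 0.98 at the bound). Across the alternatives these were 1 to 3 and 2 to 3 against CCR2, and 1 to 3 and 1 to 2 against CCR1/2, while 2 to 3 plasma cell genes were lower with inflammation in CCR2 monocytes and 0 to 1 higher in CCR1/2 monocytes. The part of plasma cells in the level of Ighm was not tested.

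Plasmacytoid dendritic cell genes, 10 of 10 tested, summed to means of 134 CPM in resting CCR1/2, 266 in resting CCR2, 201 in inflamed CCR1/2, 234 in inflamed CCR2 and 53.0 in the libraries labelled inflamed CCR1. Bst2, inducible by interferon in many cells, was the most abundant, at 78.6, 145, 116, 131 and 25.8 CPM. Siglech, the defining marker, stood at 0.890, 2.48, 0.0762, 0.177 and 0.160 CPM. In resting CCR1/2, 2 were lower than in resting CCR2 (median −0.59), among them Tcf4 (log2 fold change −1.10 ± 0.131). With inflammation 5 were lower in CCR2 monocytes (median −2.43) and 2 in CCR1/2 monocytes (median −1.43). Between the inflamed monocyte groups edgeR and DESeq2 called 0, with 1 higher and 1 lower in edgeR at an unadjusted p below 0.05 (median 0.05, or −0.18 at the bound). The libraries labelled inflamed CCR1 had 2 higher and 2 lower than inflamed CCR2 (median −0.14, or −0.15), and 1 higher and 2 lower than inflamed CCR1/2 (median −0.78, or 0.38). Across the alternatives 1 to 2 were lower between the resting populations, 4 to 6 with inflammation in CCR2 and 1 to 2 in CCR1/2 monocytes, and 2 to 3 against inflamed CCR1/2. Siglech fell with inflammation, where the mean of Ighm was higher by less than the fold cutoff. The part of plasmacytoid dendritic cells in the level of Ighm was not tested.

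T and NK cell genes, 9 of 9 tested, summed to 49.4 CPM in resting CCR1/2, 12.0 in resting CCR2, 6.81 in inflamed CCR1/2, 4.72 in inflamed CCR2 and 1561.5 in the libraries labelled inflamed CCR1, where Nkg7, a granule protein, made up nearly all of it (1559.97 CPM). Cd3e was at or below 0.227 CPM in every group, and Ncr1 had 0 reads in the libraries labelled inflamed CCR1 and in inflamed CCR1/2. The libraries labelled inflamed CCR1 thus had the highest mean of Nkg7 with the lowest mean of Ighm. They had 1 higher and 2 lower than inflamed CCR2 (median −0.52) and 1 higher and 0 lower than inflamed CCR1/2 (median −0.01), with 0 lower there by DESeq2 and 0 at an unadjusted p below 0.05 in edgeR. Of the 2 lower than inflamed CCR2, Ncr1 (edgeR adjusted p = 0.0492) did not pass with replicate numbers as a block (0.0766) or in DESeq2 (0.153), and 6 of 15 alternatives kept it, so that 0 to 2 were lower across them. In resting CCR1/2, 1 was higher, Nkg7, and 3 lower than in resting CCR2 (median −1.31). With inflammation 3 were lower in CCR2 monocytes (median −0.26) and 1 in CCR1/2 monocytes (median −0.52, or −0.44 at the bound). Across the alternatives 1 to 3 were lower between the resting populations and 2 to 3 with inflammation in CCR2 monocytes, and 0 to 1 were higher with inflammation in CCR1/2 monocytes. Between the inflamed monocyte groups edgeR called 0, DESeq2 called 1, and 2 had an unadjusted p below 0.05 in edgeR (median −1.03). Their part in the level of Ighm was not tested.

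The monocyte genes that checked the labels also moved between the other groups, beside Ighm. Their sum was 48786 CPM in resting CCR1/2, 66666 in resting CCR2, 76491.5 in inflamed CCR1/2, 77284 in inflamed CCR2 and 11025 in the libraries labelled inflamed CCR1. The means of Ighm had the same order but not the same distances. They were 646 CPM in resting CCR1/2 and 593 in the libraries labelled inflamed CCR1, a pair not compared by a test. Between the inflamed monocyte groups Ighm did not pass (edgeR adjusted p = 0.972). Lyz2, lysozyme, was the most abundant of the monocyte genes, at 27589, 36365, 35854, 36399 and 8269 CPM in the order of the sums. With inflammation 2 were higher and 3 lower in CCR2 monocytes (median −0.01), and 5 higher and 2 lower in CCR1/2 monocytes (median 0.62). In resting CCR1/2, 3 were lower than in resting CCR2 (median −0.60), and Ighm was lower as well. Between the inflamed monocyte groups edgeR called 0 and DESeq2 1, with 5 at an unadjusted p below 0.05 in edgeR (median −0.11). Across the alternatives 2 to 4 monocyte genes were lower between the resting populations, 2 to 3 were lower with inflammation in CCR2 monocytes, and 3 to 6 were higher in CCR1/2 monocytes. Whether the share of monocytes in each library has a part in the level of Ighm was not tested.

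These data are reads of bulk libraries, so nothing here says which cell held a transcript of Ighm or whether a protein was made. Each group had 3 or 4 libraries, the scarce genes had few reads, and many of their calls changed when a library was left out. Assignment of reads to the strand and between related V segments was not examined. What lies behind the level of Ighm in these libraries was not tested.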

How the data were processed

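The deposited values are raw read counts per gene, which the authors made with STAR 2.7.10a (the submitters' processing notes) on GRCm38, keeping reads with a single place of alignment. The account of the pumps follows the study's methods. Of 20 columns 1, headed as replicate 1 of inflamed CCR1/2, matched no sample and was not used, so that group has 3 libraries. A gene entered the tests when it averaged 1 read or more per library, and these were done in edgeR 4.0.16 (R 4.3.3; TMM, robust quasi-likelihood F test, two-sided, Benjamini-Hochberg adjustment over the 18652 genes). CPM use TMM factors over the 19 libraries, and log2 CPM a prior count of 2. Exact permutation tests of single genes between groups were done in R. Correlations with their permutation tests, and figures, used Python 3.11.15 with scipy 1.17.1 and matplotlib 3.10.9. Positions, exon bases and sequences are from GENCODE M21, which matched 50744 of the 50854 genes. The fits were tested on simulated data for part of the comparisons. Changes were placed only in the more abundant genes, so that test does not bear on the calls of the scarce ones.

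Members and lists were chosen with earlier results of these data known. Named are the 9 members, the 5 most abundant further immunoglobulin genes, the most abundant gene and up to 4 called genes of the smallest p of each list and comparison, overlapping genes, and the 5 genes most like Ighm; defining markers of a cell type, Ighd and the remaining J segments were added after their values were seen. Alternatives were DESeq2 1.42.0, RLE size factors, a single fit of all 19 libraries, no filter or filterByExpr, a block for replicate number, and each library left out. Scaling by library size only, the 7 inflamed CCR1/2 and CCR2 libraries in place of 11 for correlations, and likeness without the libraries labelled inflamed CCR1 were chosen after seeing the data. Replicate numbers paired libraries of the resting populations (correlation of deviations over 8878 genes 0.288 to 0.536 for the same number, −0.374 to 0.182 for others) and of inflamed CCR1 and inflamed CCR2 (0.108 to 0.206, against −0.202 to 0.08), but not in the other 4 comparisons.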

Additional observations from a re-analysis of the deposited data

Results flagged for a closer look

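Igkc in resting CCR1/2 replicate 4 stood at 20.3 CPM (658 reads), far from the other libraries of its group, which lay between 1.29 and 4.48 CPM. Ms4a1 in inflamed CCR1 replicate 4 stood at 0.894 CPM (19 reads), while the other 3 libraries of its label had 0. Both were found by the gap to the nearest library as a share of the group's range. Only sets of 4 in which some library had more than 3 reads were examined. Of these 30 sets 2 stood out so. Chance flags about 1 in 20 groups of normal values, and the rate for counts this near 0 was not examined.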

How the results depend on the processing

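Ranges are over the libraries left out in turn. In resting CCR1/2 against resting CCR2, Ighm gave −0.46 in the fit of all libraries, Igkc −0.0905 to 2.01, Ebf1 −0.0713 to 1.10 and Vpreb3 −0.75 to 0.26; 518 to 1013 genes and 0 to 1 members were called, and 0 members in the fit of all libraries. In inflamed against resting CCR2, Ighm gave 0.35 to 0.65 and Igkc −1.09 to 0.23, and filterByExpr called 1 member. In inflamed against resting CCR1/2, Igkc gave −0.87 to 1.41, 0.03002 in DESeq2, 0.0243 with RLE size factors, 0.0699 in the fit of all libraries and 0.52 with the replicate block, where Ebf1 gave 0.0239; 0 to 2 members were called, and 1 each with filterByExpr, the fit of all libraries and the replicate block. In inflamed CCR1/2 against inflamed CCR2, Ighm gave −0.34 to 0.0897 and Vpreb3 −0.43 to 1.4999; 15 to 42 genes were called, 106 in DESeq2, 53 without a filter, 53 in the fit of all libraries and 83 with the replicate block. In inflamed CCR1 against inflamed CCR2, Ms4a1 gave −4.92 (0 reads left in 1 group, so not a measured fold) to 1.75 and −0.51 with the replicate block, Vpreb3 −0.51 to 0.61, and 1 to 3 members were called. In inflamed CCR1 against inflamed CCR1/2, Igkc gave −0.34 to 1.97 and Vpreb3 −1.62 to 0.65, and 2 to 6 members were called, and the replicate block called 2 and gave −0.98 for Ighm. Values are log2 fold changes unless counts are named; the cause was not tested.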
